A study of Mus musculus with 3 samples.

Results

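Nts, Cartpt and Tac1 are 3 neuropeptide precursor genes that were followed through the authors' cluster marker tables of nuclei from the mouse lateral septum. They were taken by symbol from the gene column of 3 tables, in which they fill 11 of 2750 rows and appear in 9 of 55 cluster lists, against 1039 different genes listed in all. The nuclei came from naïve male C57BL/6J littermates aged 3 months, 8 animals in number, with no treatment, transgene or control group. Lateral septum punches of 500 µm from coronal sections of 200 µm were pooled, and the nuclei, isolated and flow-sorted, gave 3 single-nucleus libraries, which form 1 group. Neighbouring medial and triangular septum, prefrontal cortex and striatum may be partly included, per the labels' protocols. The tables compare each of 25 broad clusters with all other nuclei, each of 22 GABA subclusters with the other GABA nuclei, and each of 8 subclusters of a set labelled Sst with the other nuclei of that set. A row gives the average log2 fold change of the cluster over the rest and detection, the percentage of nuclei with the gene, inside and outside the cluster. No values per library, animal or nucleus were used here, so no value below has a replicate error or a test. The number of nuclei is not stated and was not worked out from the percentages, and the depth is unknown. Differences between clusters are descriptions of 1 pool of nuclei.

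The 3 genes encode secreted precursors that are cut into active peptides in dense-core vesicles. Nts gives neurotensin and neuromedin N, which act on the G-protein-coupled receptors encoded by Ntsr1 and Ntsr2 and bind the sorting receptor encoded by Sort1. In the mouse, neurotensin neurons of the lateral septum are known to project to the hypothalamus and to reduce food intake. Cartpt encodes the cocaine- and amphetamine-regulated transcript precursor, whose peptides are best known from the hypothalamus, where they reduce feeding. Tac1 gives the tachykinins substance P, which prefers the receptor encoded by Tacr1, and neurokinin A, which prefers that of Tacr2. In the striatum Tac1 is, together with Pdyn and Drd1, a classic marker of medium spiny neurons of the direct pathway.

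All 3 genes are compact. In GENCODE M21 on GRCm38, the assembly also called mm10, Nts lies on the minus strand of chromosome 10 from 102481756 to 102490486 with 4 exons, Cartpt on the minus strand of chromosome 13 from 99898489 to 99901091 with 3 exons, and Tac1 on the plus strand of chromosome 6 from 7554879 to 7565834 with 7 exons. Their principal transcripts code for precursors of 169, 116 and 130 amino acids, in that order. The promoter stretches below (RefSeq, GRCm38.p6, 250 bases before to 50 after the transcription start, strand of the gene) are shown to set the genes side by side, since Nts and Cartpt share clusters and Tac1 does not. All 3 were matched by symbol. The starts are RefSeq's and lie inside the wider GENCODE spans. Capitals mark matches, on either strand, to the cyclic AMP response element TGACGTCA, its core CGTCA, which the full element also contains, the AP-1 site TGAGTCA and the E-box CACGTG.
Nts, chr10:102490369-102490668, minus strand: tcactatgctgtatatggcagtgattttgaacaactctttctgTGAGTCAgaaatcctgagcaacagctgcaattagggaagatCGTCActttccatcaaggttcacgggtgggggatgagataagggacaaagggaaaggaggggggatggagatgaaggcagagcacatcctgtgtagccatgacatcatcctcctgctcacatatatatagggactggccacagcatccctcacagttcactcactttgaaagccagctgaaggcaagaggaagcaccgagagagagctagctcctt
Cartpt, chr13:99900634-99900933, minus strand: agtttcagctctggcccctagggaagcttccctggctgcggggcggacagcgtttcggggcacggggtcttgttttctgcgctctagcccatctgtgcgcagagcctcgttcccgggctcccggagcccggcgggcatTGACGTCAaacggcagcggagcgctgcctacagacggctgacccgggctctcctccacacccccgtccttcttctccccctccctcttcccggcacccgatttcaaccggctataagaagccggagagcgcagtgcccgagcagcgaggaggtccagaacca
Tac1, chr6:7554811-7555110, plus strand: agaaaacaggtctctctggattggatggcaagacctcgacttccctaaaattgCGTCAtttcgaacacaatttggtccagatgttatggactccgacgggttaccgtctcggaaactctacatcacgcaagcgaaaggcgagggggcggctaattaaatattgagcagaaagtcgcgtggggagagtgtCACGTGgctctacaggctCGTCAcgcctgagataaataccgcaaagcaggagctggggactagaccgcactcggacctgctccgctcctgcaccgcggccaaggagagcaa
The full element occurs in the Cartpt window, 112 bases before the start, and in 1.79% of the 32851 promoter windows of the table. The core occurs in all 3 windows, at 166 bases before the start in Nts and at 197 and 43 bases in Tac1, and in 20.8% of all windows. The AP-1 letters occur in the Nts window, 207 bases before the start (5.2% of all windows), and the E-box in the Tac1 window, 61 bases before the start (7.15%). The TATA box letters TATAAA, held by 13.6% of all windows, occur in 0 of the 3. A match of letters is no evidence of binding, and the tables hold no measurement of these windows.

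All 3 members were listed in the broad and GABA tables, and Nts and Cartpt in the Sst table. Of the genes that the authors' p adjustment implies were tested, 834 of 20574 (4.05%) were listed for some broad cluster, 705 of 20044 (3.52%) for some GABA subcluster and 353 of 18109 (1.95%) for some Sst subcluster. The members were picked from listed genes, so nothing follows from their being listed. Each list holds 50 genes, which is 0.243% of the tested genes for a broad cluster, 0.249% for a GABA subcluster and 0.276% for an Sst subcluster. All have log2 fold changes of 1 or more and were detected more often inside, and they stand in order of the authors' p. A gene missing from a list may therefore still differ there. The lists are not 9 separate findings, because matching clusters recur between the tables. Gad1, Gad2 and Slc32a1, the defining genes of GABA neurons, were listed for 0 of the 55 clusters, so these lists cannot check the label GABA.

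Nts was highest in a small GABA subcluster, number 20, and was listed at a lower level for the much larger subcluster 3. In the authors' deposited table, 34.2% of the nuclei of subcluster 20 and 2.2% of the other GABA nuclei had Nts, a log2 fold change of 4.21. In subcluster 3 it was detected in 8.9% against 1.8%, with a log2 fold change of 2.39, in the authors' deposited table. Detection inside was therefore 25.3 percentage points higher in subcluster 20 than in subcluster 3, while detection in the rest was within a point of each other. In the Sst table the same pair of levels recurred, with 33.8% against 3.8% in subcluster 1 (log2 fold change 3.36) and 8.9% against 2.8% in subcluster 0 (1.71) in the authors' deposited table. Among all nuclei, Nts was listed for broad cluster 3 alone, with 6.7% against 1.7% and a log2 fold change of 2.00 in the authors' deposited table. In order of detection inside, GABA 20 and Sst 1 stood first and the lists of GABA 3, Sst 0 and broad 3 well below them, and neighbours within these sets cannot be called different without a replicate spread.

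**Figure D1:**
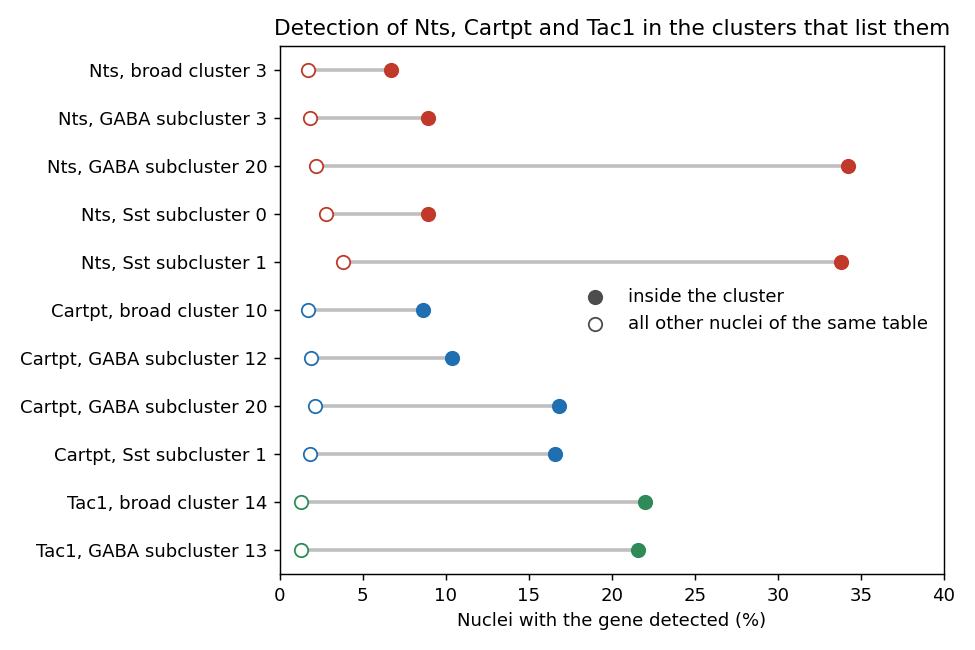
Percentage of nuclei with Nts, Cartpt or Tac1 detected (x axis) for each of the 11 rows that list them, inside the cluster (filled points) and in all other nuclei of the same table (open points). Nts reaches 34.2% and 33.8% in GABA subcluster 20 and Sst subcluster 1, while detection outside lies between 1.3% and 3.8% in every row.

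Subcluster 3 of the GABA nuclei listed 1 other neuropeptide gene beside Nts. Its list was led by Stk31, which encodes a Tudor domain kinase (log2 fold change 2.90, 31.2% against 6.6%), and Nts came next, ahead of Il1rapl2, a synaptic adhesion gene (2.34, 79.9% against 41.4%), in the authors' deposited table. Further genes reaching 25% detection there were the adhesion gene Cntn5 (1.57), Lmo7 (1.48) and the phosphodiesterase gene Pde8b (1.37) in the authors' deposited table. The enkephalin precursor gene Penk was listed there with a log2 fold change of 1.36 and detection in 9.5% against 3.8% in the authors' deposited table. Nts and Penk were thus detected in similar percentages of the nuclei of subcluster 3, but whether in the same nuclei is not given by these tables. Of the 11 lateral septum markers, 0 were listed for subcluster 3, and of the 87 transcription factors 1 was listed, Etv1 (1.18, 11.4% against 5.5% in the authors' deposited table). Of those 11 markers, 4 were listed for any GABA subcluster, and a GABA list holds 0.249% of the tested genes. A count of 0 therefore does not speak to septal identity. Broad cluster 3 listed the marker Meis2 (92.3% against 55.7% in the authors' deposited table). Sst subcluster 0 held 30 of the 50 genes of GABA subcluster 3. Nts and Penk stood next to each other there by log2 fold change, at 1.71 and 1.68 and ranks 11 and 12 of 50, in the authors' deposited table.

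Cartpt, like Nts, was listed for a pair of GABA subclusters, 20 and 12. In the authors' deposited table subcluster 20 had Cartpt in 16.8% of nuclei and the other GABA nuclei in 2.1% (log2 fold change 3.20). In subcluster 12 it was detected in 10.4% against 1.9% (2.66) in the authors' deposited table. Sst subcluster 1 gave 16.6% against 1.8% (3.56) in the authors' deposited table. For broad cluster 10, the authors' deposited table gives 8.6% inside and 1.7% outside (2.57). Detection of Cartpt inside ran in the order GABA 20, Sst 1, GABA 12, broad 10, and outside it differed by at most 0.4 points between these rows. With no replicate spread, the neighbours in this order, above all the overlapping GABA 20 and Sst 1, cannot be called different.

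GABA subcluster 12 listed Cartpt together with Penk and with several receptor genes. By log2 fold change Cartpt ranked 6 of 50 there, below the cadherin gene Cdh9 (2.68) and Fibcd1 (3.22) and above the imprinted gene Dlk1 (2.61), by the authors' deposited table. Penk followed at 2.53, with 19.3% inside and 3.7% outside in the authors' deposited table. The calcitonin receptor gene Calcr had the largest log2 fold change of the list, 4.21, from detection of 1.5% against 0.1% in the authors' deposited table. The oestrogen receptor gene Esr1 (2.12, 16.5% against 5.6%), the prolactin receptor gene Prlr (1.43, 32.1% against 12.8%) and the µ-opioid receptor gene Oprm1 (1.32, 15.7% against 7%) were also listed in the authors' deposited table. The serotonin receptor genes Htr2c (1.39, 77.2% against 40.9%) and Htr7 (1.03, 31.6% against 17.3%) were listed as well in the authors' deposited table. Pam, which encodes the enzyme that amidates many neuropeptides, had a log2 fold change of 1.07 with 75% against 45.6% in the authors' deposited table. Broad cluster 10 held 34 of these 50 genes, among them Cartpt, Penk, Calcr, Esr1, Prlr, Htr2c, Htr7 and Pam, but not Oprm1.

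Nts and Cartpt were both listed for GABA subcluster 20, though whether they lie in the same nuclei is not given. This subcluster listed 4 of the 60 neuropeptide precursor genes. Besides both members these were the somatostatin gene Sst (log2 fold change 2.52, 63.8% against 13.5%) and the chromogranin A gene Chga, which encodes a dense-core vesicle protein (2.09, 38.9% against 12.3%), in the authors' deposited table. By comparison, 13 of the 22 GABA subclusters listed 0 of the 60 genes, and 1, subcluster 19, listed more than subcluster 20, with 5. Of the genes reaching 25% detection there, Nts had the largest log2 fold change. It was followed by Fam19a1, which encodes a secreted chemokine-like protein (4.06, 100% against 33.6%), Stk31 (3.22, 51% against 8.4%), the transcription factor gene Zbtb20 (2.86, 92.6% against 35.9%) and Nebl (2.74, 81.9% against 26.6%), in the authors' deposited table. The genes ranked above Nts by log2 fold change, Tnfsf11, Gm13404, Dapp1, Chodl and Nptx2, were each detected in 4% of the nuclei or fewer in the authors' deposited table. The Chodl entry is in doubt, since the authors' deposited table gives 3.4% here but 12.6% for the matching Sst subcluster 1. Just below Cartpt came Sulf1 (3.08, 21.5% against 2.8%), a heparan sulphate editing gene, and Sertm1 (3.01) in the authors' deposited table.

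Transcription factor genes were also listed with Nts and Cartpt in subcluster 20. They included Nr4a2 (log2 fold change 4.02, 7.4% against 0.5%), Zbtb20, Pbx3 (2.26, 94% against 35%), Runx1t1 (2.12, 53% against 12.6%) and Meis2 (1.56, 98.7% against 63.8%) in the authors' deposited table. By the marker lists, beside the 0.249% of tested genes that 1 GABA list holds, the subcluster stays unnamed. It listed 1 of 11 lateral septum markers (Meis2), 2 of 13 interneuron markers (Chodl and Sst), 0 of 11 medium spiny neuron markers and 0 markers of glia or of excitatory, cholinergic, vascular or ependymal cells. Sst subcluster 1, its counterpart, also listed the oligodendrocyte precursor marker Vcan (3.73, 12.6% against 1.5% in the authors' deposited table), and the part of other cell types in its values was not tested.

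**Figure D2:**
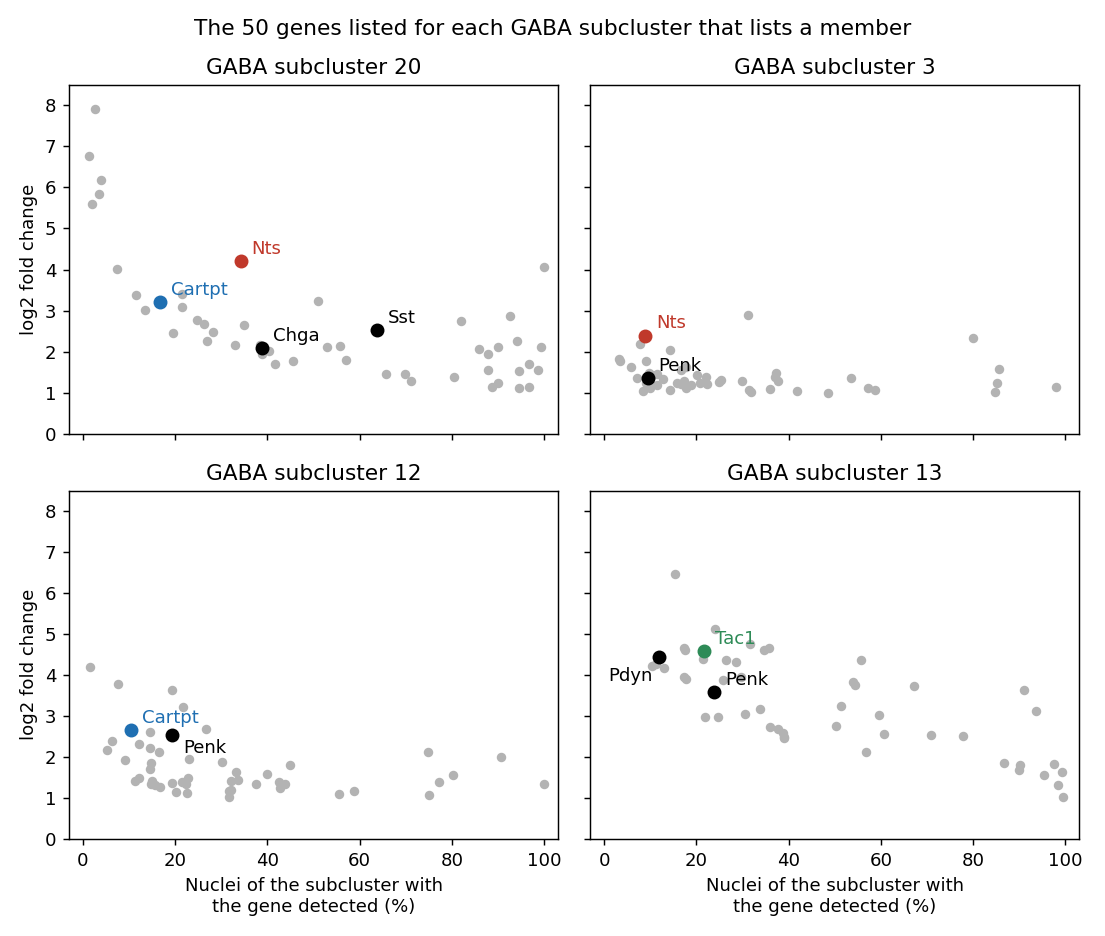
Log2 fold change (y axis) against detection inside the subcluster (x axis, percent of nuclei) for the 50 genes of each GABA subcluster that lists Nts, Cartpt or Tac1. Members are coloured, other neuropeptide genes are black and the remaining genes grey; Nts in subcluster 20 lies at 34.2% and 4.21, above the other genes of that subcluster detected in over 25% of its nuclei.

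Tac1 was listed for 1 GABA subcluster, number 13, and for its broad counterpart, cluster 14. In the authors' deposited table, 21.6% of the nuclei of subcluster 13 and 1.3% of the other GABA nuclei had Tac1 (log2 fold change 4.58). In broad cluster 14 these were 22% inside and 1.3% outside (4.57) in the authors' deposited table. Those lists shared 43 of 50 genes, with detection inside differing by a median of 0.2 points, and are treated as 1 observation. Tac1 was listed for 0 of the 8 Sst subclusters. It stood among the genes of striatal medium spiny neurons. In subcluster 13 these were Adora2a, the adenosine receptor gene of the indirect pathway (6.46, 15.3% against 0.2%), Scn4b (5.12, 24.1% against 1.1%), Ppp1r1b, which encodes DARPP-32 (4.66, 35.8% against 2.4%), Rgs9 (4.36, 55.8% against 5.2%) and the retinoic acid receptor gene Rarb (3.84, 54% against 5.6%) in the authors' deposited table. The list held 5 of 11 medium spiny neuron markers and broad cluster 14 held 6, and both are called medium spiny neuron-like. Both also listed the astrocyte marker Slc4a4, 1 of 8 on that list (3.25, 51.4% against 9.7% for subcluster 13 in the authors' deposited table), and the part of astrocyte RNA in the values was not tested.

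By log2 fold change Tac1 ranked 8 of 50 in GABA subcluster 13, next to Pdyn, the prodynorphin gene (4.43, 12% against 0.7%), and Drd1, the dopamine receptor gene of the direct pathway (4.39, 21.4% against 1.2%), in the authors' deposited table. Tac1 and Drd1 were detected in nearly equal percentages of its nuclei, 21.6% and 21.4%. Penk, a gene of the indirect pathway, was detected in 23.9% against 3.7% (3.58) in the authors' deposited table. Genes of both pathways were thus listed for 1 subcluster, 2 of 5 for the direct pathway (Drd1, Pdyn) and 2 of 6 for the indirect (Adora2a, Penk), and the tables do not say whether Tac1 and Penk lie in the same nuclei. Ranked just above Tac1 were 6530403H02Rik (4.62) and Stk32a (4.61) in the authors' deposited table. Transcription factor genes listed with Tac1 in subcluster 13 were Foxo1 (4.36), Rarb, Zbtb20 (3.13), Runx1t1 (3.02) and Foxp1 (2.55, 70.8% against 26.8%) in the authors' deposited table. Zbtb20 and Runx1t1 were the 2 genes that the Tac1 list shared with subcluster 20. Striatal tissue may be included, per the labels' protocols, and whether the Tac1 nuclei are septal was not tested.

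Set among the other peptides of the GABA table, the members were spread over the order of levels. Of the 60 neuropeptide precursor genes, 14 were listed in 22 rows. By detection inside, Nts in subcluster 20 was 5 of 22, behind Sst in subclusters 20, 17 and 16 and Chga, and Tac1 in subcluster 13 was 11. Cartpt was 16 in subcluster 20 and 18 in subcluster 12, and Nts in subcluster 3 was 20. By log2 fold change the order differed, with Tac1 at 7, Nts in subcluster 20 at 10 and Cartpt in subcluster 20 at 13. Penk was listed for 3 GABA subclusters, and these were 3, 12 and 13, the same ones that list Nts, Cartpt and Tac1 apart from subcluster 20. No other peptide gene was listed beside all 3 members in the GABA table. Among all nuclei, broad cluster 3 listed Nts without Penk.

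**Figure D3:**
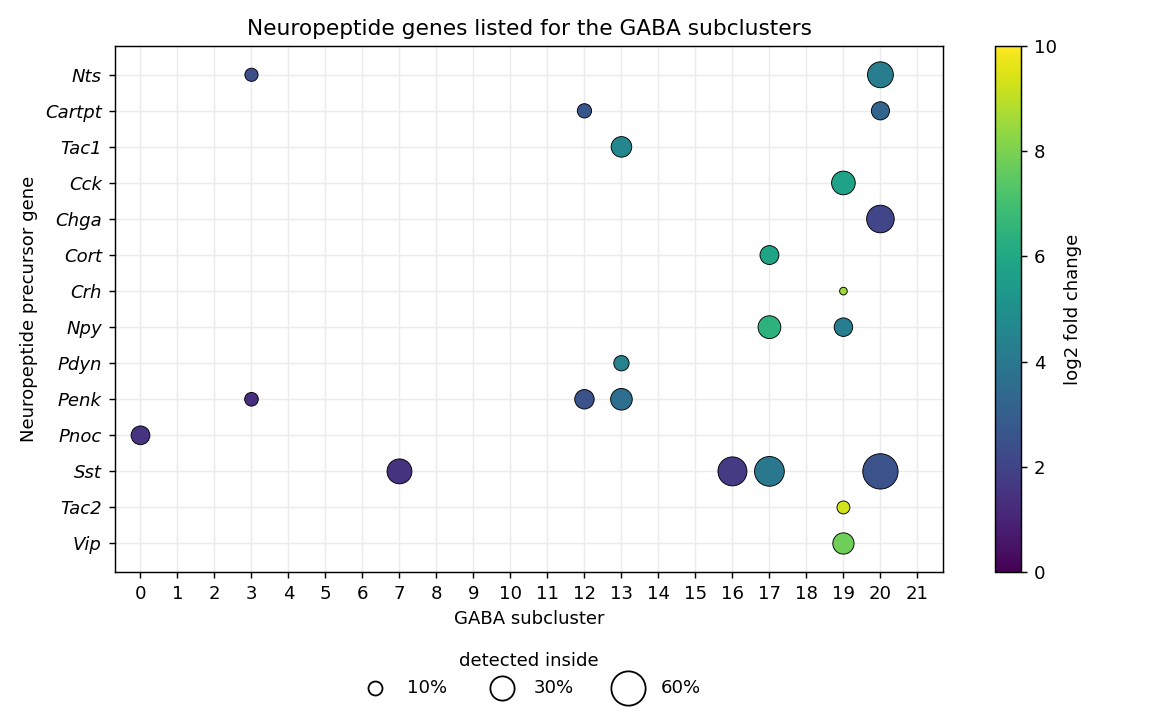
Neuropeptide precursor genes (rows) listed for the GABA subclusters (x axis), with point area for detection inside the subcluster and colour for the log2 fold change. Nts and Cartpt are both listed for subcluster 20, not necessarily in the same nuclei. Penk is listed in subclusters 3, 12 and 13, beside Nts, Cartpt and Tac1.

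Genes from the short lists of receptors and processing enzymes were counted in the same way. A single list holds 0.243% to 0.276% of the tested genes, and all lists of a table hold 1.95% to 4.05%. Counts of 0 or near 0 among such short lists are therefore not a result about these genes. Of the 6 neurotensin and tachykinin receptor genes, 1 was listed, the substance P receptor gene Tacr1, in GABA subcluster 11 and broad cluster 11, with detection of 20.7% and 19.6% inside and 2% outside both in the authors' deposited table. Neither of those clusters listed Tac1, Nts or Cartpt. Ntsr1, Ntsr2, Sort1, Tacr2 and Tacr3 were listed for 0 of the 55 clusters, which does not show that they were not expressed. Of 14 processing and vesicle genes, 2 were listed in the GABA table, Pam and Cadps2, and 3 in the broad table, beside 3.52% and 4.05% of all tested genes. The third was Pcsk1, which encodes a prohormone convertase, in broad cluster 18, where the authors' deposited table gives 3.93 and 19% against 1.4%. With the members themselves only Pam, in GABA 12 and broad 10, and Cadps2, in broad 3 (1.02, 35.3% against 21.7% in the authors' deposited table), were listed. Of 7 peptidase genes that degrade such peptides, 0 were listed in any table.

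The log2 fold changes of the members were close to what the percentages of positive nuclei alone give. The log2 ratio of detection inside to outside was 3.96 for Nts in GABA subcluster 20, where the authors' deposited table gives a log2 fold change of 4.21, and 2.31 in subcluster 3, beside 2.39. For Cartpt it was 3.00 in subcluster 20, beside 3.20, and 2.45 in subcluster 12, beside 2.66 in the authors' deposited table. Tac1 had the widest gap, with a log2 ratio of 4.05 in subcluster 13 (4.00 to 4.11 from rounding of the percentages) and a log2 fold change of 4.58 in the authors' deposited table. Over the 11 rows the fold change exceeded the ratio by 0.02 to 0.52.

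Since overall detection of a gene must be the same from every cluster that lists it, the percentages also give each cluster's share of the nuclei and, from it, where the positive nuclei lie. GABA subcluster 20 came to 0.71% of GABA nuclei, subcluster 3 to 8.73%, subcluster 12 to 3.55% and subcluster 13 to 2.78%. Nts was detected in 2.42% of GABA nuclei (2.38 to 2.47 from rounding). Of these positive nuclei, 32.1% lay in subcluster 3 and 10.1% in subcluster 20, so the subcluster with the lower detection held the larger part. The other 20 subclusters together held 57.9% of them, at a mean detection of 1.55% (1.50 to 1.60 from rounding). Cartpt was detected in 2.20% of GABA nuclei, with 16.7% of the positive nuclei in subcluster 12, 5.43% in subcluster 20 and 77.8% elsewhere, at a mean detection of 1.79%. Tac1 was detected in 1.87%, with 32.2% in subcluster 13 and 67.8% elsewhere, at 1.30%. In the GABA table, most nuclei with a detected Nts, Cartpt or Tac1 transcript therefore lay outside the listing subclusters. Detection at the low level found there is not read as expression, so this does not place the expressing neurons.

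**Figure D4:**
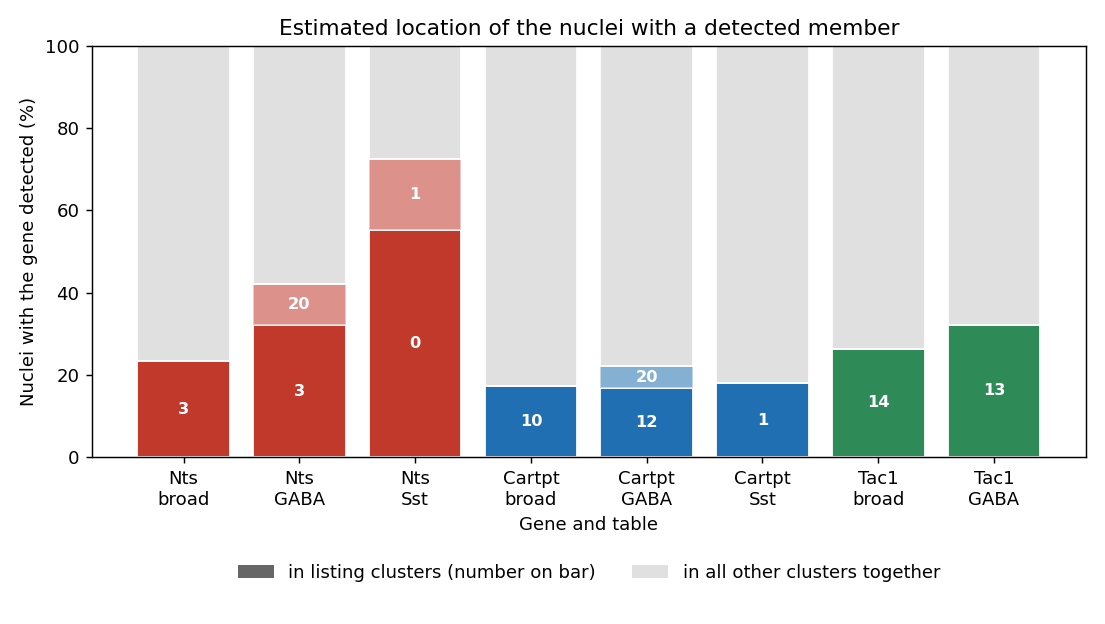
Estimated percentage of the nuclei with each gene detected (y axis) that lie in the listing clusters, whose numbers stand on the bars, and in all other clusters together (light grey), by gene and table. Listing subclusters hold 72.7% of the Nts nuclei in the Sst table, 42.1% in the GABA table and 23.4%, for broad cluster 3, among all nuclei. The low detection in the other clusters is not read as expression.

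In the Sst table Nts was detected in 4.50% of nuclei, of which 55.2% lay in subcluster 0 and 17.4% in subcluster 1. Cartpt was detected in 2.14% there, with 18% of its positive nuclei in subcluster 1. The gene Sst itself was detected in 24.8% of the nuclei of this set and was not listed for subcluster 0. The set is therefore not read as somatostatin neurons. Taking the Sst nuclei as a subset of the GABA nuclei, and both as subsets of all nuclei, which the labels do not state, their shares follow from matched clusters. From 5 matched clusters with nearly equal detection, the Sst nuclei were 30.5% of the GABA nuclei (30.1% to 31.3%). On that basis they held 56.7% of the GABA nuclei with Nts (54.3% to 59.8%) and 29.6% of those with Cartpt (28% to 31.9%). The Sst set includes the counterparts of GABA subclusters 3 and 20, which list Nts. Inside the set Nts detection was 4.50%, against 1.51% in the GABA nuclei outside it (1.39% to 1.62%). Cartpt detection was 2.14% inside and 2.23% outside (2.13% to 2.32%). These ranges cover the spread over the 5 matched clusters and, for positive nuclei and detection, rounding. They do not cover animals, libraries or other choices of matched clusters. The less similar match of Sst subcluster 7 with GABA subcluster 8 gave a ratio of 0.289, below the range.

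Estimated detection was also low in the nuclei outside the GABA set. For Nts and Cartpt it lay below that of GABA nuclei outside the listing subclusters, and for Tac1 it was about equal. GABA nuclei were 74.4% of all nuclei by 4 matched clusters (71.8% to 78.7%), and 78.5% with the matched clusters of less similar detection added, whose single ratios ran between 0.673 and 1.37. A ratio above 1 is not possible for a subset, so such pairs cannot hold the same nuclei. Mean detection in GABA nuclei outside the listing subclusters was 1.55% for Nts, 1.79% for Cartpt and 1.30% for Tac1, as above. In the nuclei outside the GABA set, which include glia and excitatory neurons, Nts came to 1.01% (0.31% to 1.42%), Cartpt to 1.30% (0.70% to 1.69%) and Tac1 to 1.32% (0.79% to 1.68%). The part of free RNA in them was not tested, and detection at this level is not read as expression.

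The 9 lists fell into 4 families. The lists of GABA subcluster 3, Sst subcluster 0 and broad cluster 3, which hold Nts, shared 23 to 30 genes pairwise. GABA subcluster 20 and Sst subcluster 1 shared 39, with a median difference in detection of 0.3 points. GABA subcluster 12 and broad cluster 10 shared 34, and GABA subcluster 13 and broad cluster 14 shared 43. Between the families the counts were at most 10. Outside these 9 lists, broad cluster 3 also shared 22 genes with GABA subcluster 9, which lists no member, beside 24 with GABA subcluster 3. Broad cluster 3 is therefore not matched to GABA subcluster 3 alone. GABA subclusters 20 and 3, both listing Nts, shared 5 of 50 genes, namely Nts, Stk31, Fyb, Plch1 and Sema6a. GABA subclusters 20 and 12, both listing Cartpt, shared Cartpt and Zfp804b alone. No broad list matched subcluster 20 well, the nearest being broad cluster 3 with 10 genes.

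**Figure D5:**
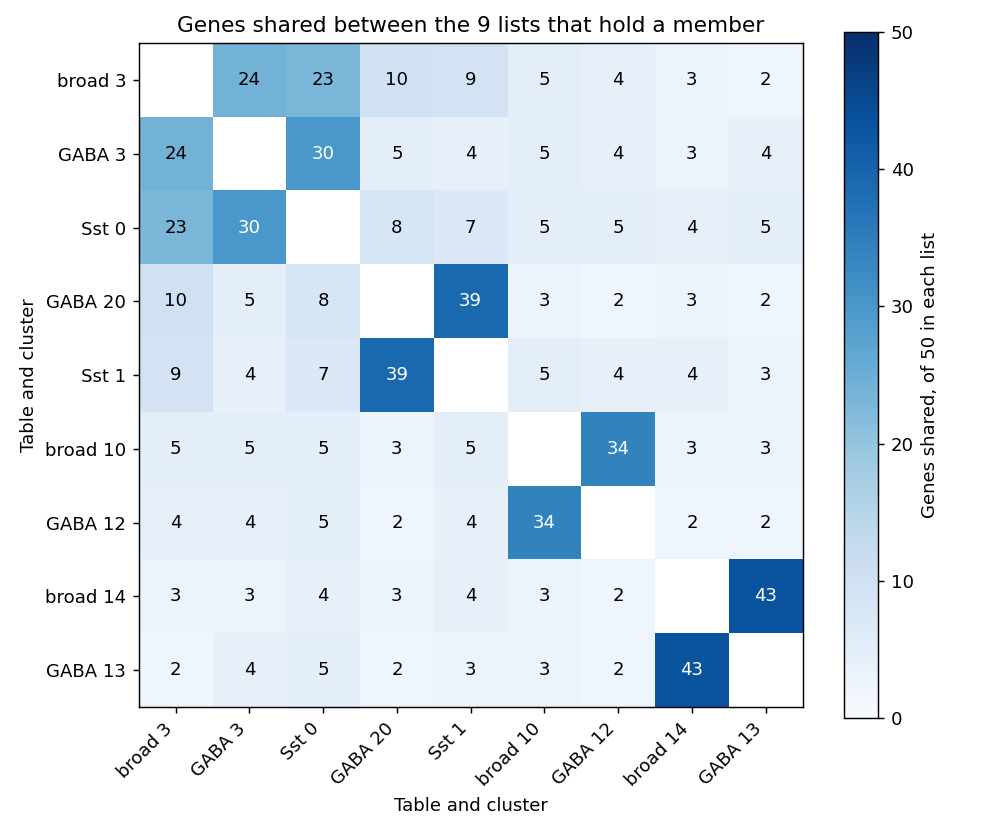
Number of genes shared between each pair of the 9 cluster lists that hold Nts, Cartpt or Tac1 (rows and columns, 50 genes in each list). Pairs of the same family share 23 to 43 genes, and pairs of different families at most 10.

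Genes whose cluster sets were most like those of the members were ranked by the Jaccard index, the number of clusters listing both genes over the number listing either, across all 55 clusters. For Nts, with 5 clusters, these were Fyb, an adaptor protein gene, and Sema6a, a guidance cue gene, both at 0.8, then Stk31 (0.714), Gdpd2 (0.667) and C030005K15Rik (0.6). Stk31 was listed in all 5 Nts clusters and in 2 others. For Cartpt, with 4 clusters, they were Crim1 (0.6) and, at 0.5 each, the collagen gene Col12a1, Dlk1, Adgrg4 and Fibcd1. For Tac1, 17 genes had exactly its 2 clusters, and the closest of them in log2 fold change were Pdyn, Drd1, Sh3rf2, Rgs9 and Foxo1. Nts and Cartpt shared 2 of the 7 clusters that list either (0.286), and Tac1 shared 0 with both. The clusters of different tables hold many of the same nuclei, so these values describe the lists and are not counts of independent agreement.

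Apart from position in the lists, the members shared small size and detection inside below the median of each list. For Nts in GABA subcluster 20 this was 34.2% beside a list median of 48.3%, with 17 listed genes detected less often. Nts spans 8.73 kb, Cartpt 2.6 kb and Tac1 10.96 kb, against a median of 154 kb for the 694 GABA table genes with a known span. In GABA subcluster 20, 2 of the 49 genes with a span were shorter than Cartpt and 3 shorter than Nts, where the list's median was 202 kb. The 14 listed neuropeptide genes of the GABA table had a median span of 7.04 kb. Their rows had a median detection inside of 20.5% and a median log2 fold change of 3.79, against 38.8% and 1.67 over all 1100 rows of the authors' deposited table. The part of gene span in these detection values was not tested.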

How the data were processed

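Nuclear RNA from 1 pool of nuclei was measured in 3 libraries, which form 1 group. Seurat 4 and build mm10 are named in the submitters' processing notes. How reads were aligned, nuclei filtered and clustered, doublets and free RNA treated and genes tested is not given in the sources used. The log2 fold changes are the authors', per the file headers, with no stated pseudocount. Detection is deposited as a fraction with 3 decimals and printed here as a percentage. The authors' deposited p-values come from a test not stated and rank nothing here; their adjusted value is the raw one times a constant. The largest adjusted p was 6.51e-07, so a threshold of 0.05 removed 0 rows.

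Cluster shares were solved by least squares from 286 broad, 258 GABA and 42 Sst genes listed in several clusters (residuals of 0.04, 0.036 and 0.037 points). The shares summed to 100.36%, 100.6% and 99.93%. On simulated data the largest error of a share was 0.03, 0.043 and 0.038 points, in the same order. This is a check of the arithmetic and not of the data. Ranges in parentheses move each percentage by 0.05 points, except for the nested shares. For these they are the lowest and highest ratio over the matched clusters. Ranges of values worked out from the nested shares combine both. Matched clusters, used for the nested shares, shared at least 30 genes with a median difference in detection of at most 0.5 points, limits chosen after some of these data were seen. Python 3.11.15, numpy 2.4.6, pandas 2.3.3 and matplotlib 3.10.9 were used.

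Named genes were the members, the 5 of largest log2 fold change with at least 25% detection in each listing cluster, the 2 above and below each member, and list members; Htr2c and Htr7 were chosen after their values were seen. Not all are printed. The members and lists were chosen with earlier results of these data known.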

Additional observations from a re-analysis of the deposited data

How the results depend on the processing

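The ranking measure mattered most. By the difference in detection instead of the log2 fold change, all 11 ranks moved, to 46 (Nts in broad 3), 34 (Nts in GABA 3), 23 (Nts in GABA 20), 33 and 21 (Nts in Sst 0 and 1), 35, 41, 42 and 42 (Cartpt in broad 10, GABA 12, GABA 20 and Sst 1), and 33 and 35 (Tac1 in broad 14 and GABA 13). By the detection ratio with 0.01 added, Nts came to 1 in GABA 20, 5 in Sst 0 and 3 in Sst 1, and Cartpt to 5 in GABA 20 and 5 in Sst 1, and the other 6 ranks stayed within 1.5 times. Among genes detected in at least 10% of nuclei, Nts was 1 and Cartpt 6 in GABA 20, by construction, since the genes above them were rarer. A minimum detection of 10% left 0 broad clusters listing Nts, 0 listing Cartpt, 1 GABA subcluster and 1 Sst subcluster listing Nts, and a minimum log2 fold change of 2 left 1 Sst subcluster listing Nts. With shares forced to 100%, GABA 20 held 9.77% of Nts and 5.28% of Cartpt nuclei, and the other 42 estimates over 4 solutions stayed within rounding. By the 25 leading genes, the best Sst match of GABA 12 became subcluster 0, and 17 other matches stayed. With the GABA table alone, 3, 2 and 1 of the 5 genes most like Nts, Cartpt and Tac1 were the same. The stricter adjusted p of 0.001 changed 0 of 8 counts, by construction, since every listed row lay below it. With all matched clusters, an alternative chosen after seeing the data, the GABA and Sst shares were 78.5% and 30.3%, inside their ranges. Some single ratios of the added clusters fell outside these ranges, for the GABA share even above 1, so this is no check of the shares. No paired analysis was possible because all libraries form 1 group and no values per library were used. Depth is unknown and numbers of nuclei were not worked out, so low percentages, above all in small clusters, are given without a counting interval.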

Other observations

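Detection of the 39 genes shared by GABA subcluster 20 and Sst subcluster 1, the lists that hold both Nts and Cartpt, differed by a median of 0.3 points in the authors' deposited tables. The interneuron gene Chodl was the exception, with 12.6% of the nuclei of Sst subcluster 1 and 3.4% of those of GABA subcluster 20 in the authors' deposited tables, a difference of 9.2 points. Which of the Chodl entries is right cannot be told from the tables, so both are in doubt. The next largest difference among the shared genes was 1.1 points. Nts itself (33.8% and 34.2%) and Cartpt (16.6% and 16.8%) were nearly equal.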
